A study of Mus musculus with 7 samples.

Results

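The exons described here are all 611 exons of 538 gene symbols that the study listed as regulated by PTBP1 or PTBP2 in newborn mouse neocortex. They were placed by how far their inclusion in the Ptbp1 knock-in stood from wildtype. Inclusion is read as the percentage of a gene's transcripts that contain the exon, and a difference between 2 percentages is given in percentage points. An exon 20 points or more from wildtype was counted as unrestored or overshooting, and one under 5 points as at wildtype level. Of the 611 exons, 94 were in the first group, 97 in the second and 420 lay from 5 to under 20 points. Each exon was also placed by whether its knock-in level lay between wildtype and knockout, beyond wildtype, or beyond the knockout. The levels themselves chose these groups, so group sizes and levels are descriptions and carry no test.

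All 3 genotypes were postnatal day 1 (P1) neocortices of 129/BL6 mice, with 1 RNA sequencing library each. Wildtype was set beside Emx1-Ptbp2KO, here the knockout, and Emx1-Ptbp2KO-Ptbp1KI, here the knock-in, which carries the same Ptbp2 knockout and a Ptbp1 knock-in. The tables head the third genotype DM, and it was matched to the knock-in as the only P1 library left. A further 4 BL6 libraries, at E14, E17, P2 and P10, serve as a developmental scale. Emx1 marks the lineage of the dorsal forebrain, and interneurons, microglia and vessel cells of the neocortex arise from other lineages. In bulk tissue a different inclusion per cell and a different share of cells of a type cannot be told apart. The labels do not say whether a library held 1 animal or several, and the tissue label could not be checked against marker genes, because the tables used hold inclusion levels only.

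PTBP1 and PTBP2 are polypyrimidine tract binding proteins, which bind pyrimidine-rich stretches of pre-mRNA and most often repress the exons beside them. PTBP1 is the form of neural progenitors and most other tissues, and it is replaced by PTBP2 when neurons begin to differentiate. Many exons that mature neurons use, among them very short microexons, are held back while PTBP2 is present. The knock-in genotype asks which of the exons that depend on PTBP2 stand where they do in wildtype when PTBP1 is supplied in its place.

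With 1 library per genotype no difference had a replicate check. How many reads stand behind a level is not known. The authors' deposited table gives p-values against the knockout but none for knock-in against wildtype. Of all 611 exons, 15.4% differed from wildtype by 20 points or more in the knock-in and 15.9% by under 5 points, which are the shares the counts below are read against. By comparison 22.4% differed by 20 points or more between knockout and wildtype, and 4.91% between knock-in and knockout. The list itself limits these shares. Exons assigned to PTBP2 alone have knock-in and knockout at most 9.97 points apart, and those assigned to PTBP1 alone have wildtype and knockout at most 9.87 apart. The P1 wildtype and the P2 library, with no targeted allele, serve as a gauge of how far such libraries stand apart. They differed by 20 points or more in 55 of the 268 exons with levels in both (20.5%). Ages were given only for exons that the authors had placed in developmental clusters, so the 268 are a selected part of the 611. In the same 268 exons the knock-in differed from wildtype by that much in 65 (24.3%). These libraries differ in age and strain, and P2 was the higher in 199 of the 268 exons, so this gauge is not replicate error. Under 5 points apart were 67 of the 268 exons between P2 and P1 wildtype (25%), and 19 between knock-in and wildtype (7.09%).

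Printed first are coding exons of 20 points or more from wildtype whose levels are described in what follows, chosen from short exons of genes with neuronal or membrane roles. Sequences are coding exons cut from GENCODE M21 transcripts on GRCm38, 5′ to 3′, and capitals mark a pyrimidine motif where the exon holds one. The motif TCTT was searched on the transcript strand alone, as were the motif CTCTCT and then the motif TTCTTT, which contains the first of them. PTB proteins act mostly through intronic sites, which were not used here.
Gramd1b 12-nt exon, chr9:40300440-40300451, minus strand: gatctgtttcag
Csnk1g1 24-nt exon, chr9:66035050-66035073, plus strand: ctgcctgaaaatgctcaacctgtg
Agrn 24-nt exon, chr4:156168546-156168569, minus strand: cgagctgaccaatgagatcccagc
Ank3 27-nt exon, chr10:69980824-69980850, plus strand: gagacagagtcagatcaagatgatgag
Dnm2 30-nt exon, chr9:21487047-21487076, plus strand: ctgtttctatactgaggagctggtcacagg
Kif21a 39-nt exon, chr15:90949006-90949044, minus strand: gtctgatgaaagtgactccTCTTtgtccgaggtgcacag
Camk2b 45-nt exon, chr11:5981070-5981114, minus strand: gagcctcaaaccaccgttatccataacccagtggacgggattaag
Synj1 48-nt exon, chr16:90948066-90948113, minus strand: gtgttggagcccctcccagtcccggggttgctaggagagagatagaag
Camk2b 75-nt exon, chr11:5987057-5987131, minus strand: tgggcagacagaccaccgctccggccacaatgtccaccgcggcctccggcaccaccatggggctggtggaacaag

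Of these exons only that of Kif21a holds 1 of the 3 motifs. The motif TCTT on the transcript strand was found in 29.8% of the 94 far exons, 39.2% of the 418 middle exons with a sequence and 42.3% of the 97 exons at wildtype level, against 38.3% of all 609. Longer exons have more places for a match, and the groups differ in length. Pyrimidines made up a median of 49.7% of bases in the far exons and 47.3% in those at wildtype level, beside 49.0% in all.

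Of all 611 listed exons the knock-in was higher than wildtype in 447 (73.2%) and lower in 160 (26.2%), so the list itself leans to the high side. In 77 of the 611 exons the knock-in was higher than wildtype by 20 points or more (12.6% of all), and their medians were 36.0% for wildtype, 68.5% for the knockout and 65.5% for the knock-in. In 17 exons it was lower by that much (2.78%), with medians of 78.6%, 47.4% and 56.2%. Those medians come from different exons, and exon by exon the knock-in of the 17 stood a median of 0.179 points above the knockout. In 25 of the 94 the knock-in was within 1 point of the knockout, against 100 of all 611. Between wildtype and knockout lay 58 of the 94, beyond the knockout 35, and beyond wildtype 1. Of the 611 exons as a whole, 367 lay between, 131 beyond the knockout and 105 beyond wildtype. A further 4 were exactly at wildtype, 3 exactly at the knockout, and 1 had equal wildtype and knockout levels.

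**Figure D1:**
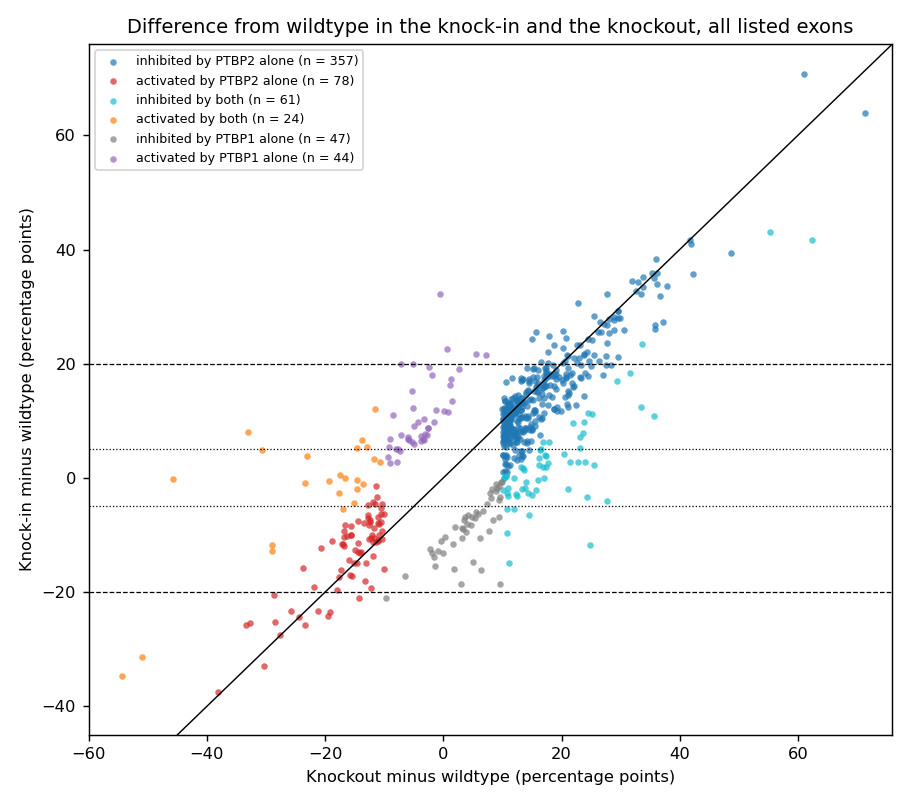
Each point is 1 of 611 exons, with knockout minus wildtype on the x axis and knock-in minus wildtype on the y axis, both in percentage points, coloured by the authors' class. The diagonal marks a knock-in equal to the knockout, dashed lines 20 points and dotted lines 5 points; of the 94 exons outside the dashed lines, 77 are above and 17 below.

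The limits of the authors' classes fix much of the sorting. Exons of PTBP2 alone were listed with knock-in and knockout at most 9.97 points apart, so such an exon is forced past 20 points from wildtype once the knockout change reaches 30. All 27 of that size were in the far group. It held 47 of 78 with a knockout change of 20 to under 30 points, 9 of 92 with 15 to under 20, and 1 of 238 below 15. In the same way an exon of PTBP2 alone could be at wildtype level only with a knockout change under 15 points, and 29 of the 238 were. Exons listed under both proteins, whose knock-in was at least 10.1 points from the knockout, had no such bound on the far side. Of their 11 exons with a knockout change of 30 points or more, 5 were far from wildtype, 2 at wildtype level and 4 in between.

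**Figure D2:**
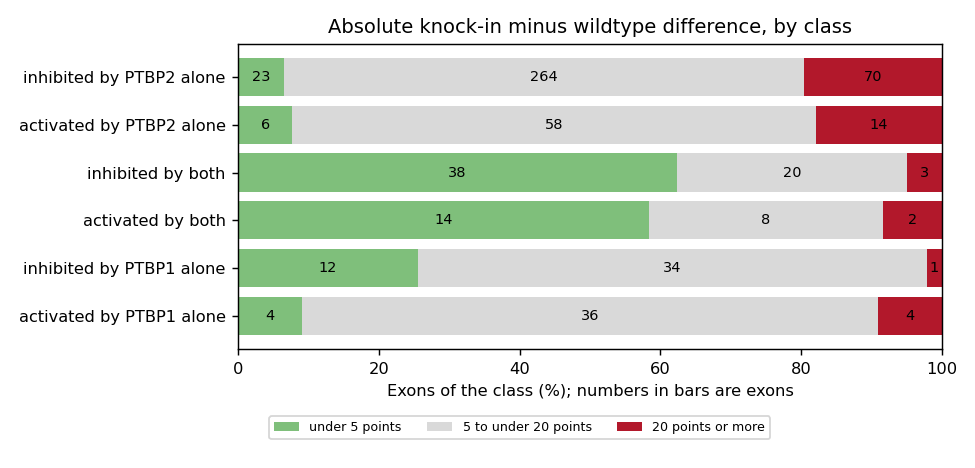
Bars give the percentage of exons of each class by absolute knock-in minus wildtype difference, with exon numbers printed in them. The far group holds 70 of 357 exons inhibited and 14 of 78 activated by PTBP2 alone, while 38 of 61 inhibited and 14 of 24 activated by both are under 5 points.

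By class, 70 of the 357 exons inhibited by PTBP2 alone were 20 points or more from wildtype (19.6%), and 14 of the 78 activated by it (17.9%). The corresponding counts were 3 of 61 exons inhibited by both proteins, 2 of 24 activated by both, 1 of 47 inhibited by PTBP1 alone and 4 of 44 activated by PTBP1 alone. An inhibited exon is one with higher inclusion without the protein, and an activated exon one with lower inclusion.

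Many exons that lay between the 2 other genotypes stood at or near the knockout level. For exons of PTBP2 alone the class sets this, with knock-in and knockout under 10 points apart. The 45 such far exons inhibited by PTBP2 alone had medians of 41.8% for wildtype, 70.4% for the knockout and 65.9% for the knock-in. In 15 of them the knock-in was within 1 point of the knockout, against 49 of all 257 exons of the class that lay between. Sympk, a scaffold of mRNA 3′ end processing, had an untranslated exon at 0.220% for wildtype, 71.5% for the knockout and 64.1% for the knock-in, the last 63.9 points above the first. The exon of Dnm2, the dynamin that cuts vesicles from membranes, was at 7.80%, 49.5% and 49.5% in the same order. An exon of the formin Fmnl1, an actin nucleator, was at 46.3%, 88.2% and 87.2%. In each of these the knock-in stood nearer the knockout than wildtype, as the class limit and the limit of 20 points together require. For knock-in against knockout the authors' deposited table gives p = 1.71e-08 for Sympk and 0.703 for Fmnl1.

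A 12-nt exon of Gramd1b, a sterol carrier at membrane contacts, was at 25.5%, 61.7% and 61.5%. The 24-nt exon of the casein kinase gene Csnk1g1 was at 15.03%, 53.0% and 48.6%. For Kif21a, a microtubule motor, the 39-nt exon was at 42.2%, 71.1% and 69.9%. All of these were higher in both mutants than in wildtype, as their class requires. Scrib, a scaffold of cell polarity, had an exon at 33.0%, 75.2% and 68.7%. For knock-in against knockout the authors' deposited table gives p = 0.000789 for Scrib, against 0.919 for Gramd1b, 0.170 for Csnk1g1 and 0.694 for Kif21a. Gramd1b and Csnk1g1 were chosen after their values were seen.

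Vesicle traffic gave 5 far exons among its 10 listed ones, all higher than wildtype. Besides Dnm2 and Stam2 these included Exoc7, a subunit of the exocyst (67.2%, 92.3% and 91.3%), and Cltb, a clathrin light chain (34.3%, 58.1% and 55.8%). In the synapse and ion channel list 4 of 14 exons were far, among them Slc4a10, higher than wildtype, and Nlgn1 and Sytl2, lower than it. The actin and adhesion list had 4 of 6 (Fmnl1, Scrib and Ank3 higher, Abi2 lower), and RNA binding and splicing had 7 of 12, 4 higher and 3 lower. Of 12 exons in genes known as PTB targets, 6 were far, all higher than wildtype, and 2 at wildtype level. The chromatin and transcription list had 3 of 9, among them Smarcc2, a subunit of the BAF remodelling complex (41.8%, 71.4% and 69.9%), and Ikzf4, a zinc finger gene (9.68%, 58.3% and 48.99%). The microtubule and motor list had 1 of 7, and the lists of axon growth and guidance (5 exons) and of kinases (1 exon) had none. These lists were written with large changes of the series already known, so shares above the 15.4% of all exons are no result about them.

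The 5 far exons listed under both proteins stood at least 10 points nearer to wildtype than the knockout did, and still 20 or more away from it. Stam2, an endosomal sorting gene, had an exon of a transcript subject to nonsense-mediated decay (NMD) at 4.96%, 60.2% and 48.03%, again in the order wildtype, knockout and knock-in. The Slc4a10 exon, of a bicarbonate transporter gene, was at 9.96%, 72.4% and 51.7%. An exon of Ptch1, the Hedgehog receptor, was at 14.3%, 47.8% and 37.7%, and it was chosen after its values were seen. The 2 overlapping exons of Aen, a nuclease gene induced by p53, were at 98.7%, 44.3% and 63.9% and at 98.9%, 47.9% and 67.4%. All 5 lay between wildtype and knockout, and the first 3 were above wildtype and the Aen exons below it.

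**Figure D3:**
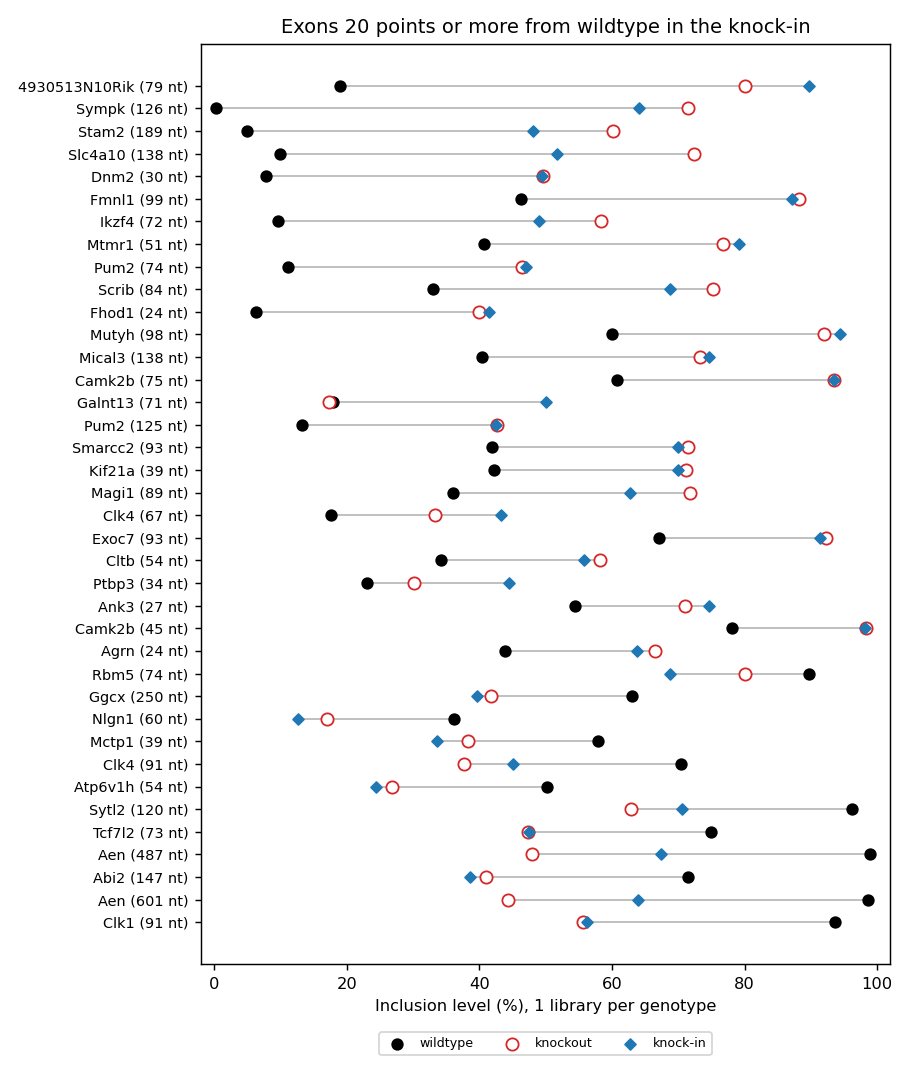
Inclusion levels in percent of exons chosen by the naming rule among those 20 points or more from wildtype, 1 library per genotype, ordered by knock-in minus wildtype. Knock-in diamonds lie on or near the open knockout circles in most rows, as in Dnm2 (49.5% and 49.5%) and Clk1 (55.6% and 56.2%), and apart from both others in Galnt13 (50.0%). For exons of PTBP2 alone this nearness is set by their class.

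Of the 17 exons lower than wildtype by 20 points or more, 14 were activated by PTBP2 alone, against 78 of all 160 lower exons. The class fixes this direction, since the knockout is at least 10 points below wildtype and the knock-in under 10 points from the knockout. The coding exons shown next belong to kinases that phosphorylate SR splicing factors and to an actin regulator, and the kinase pair allows a comparison of related sequences.
Clk1 91-nt exon, chr1:58420121-58420211, minus strand: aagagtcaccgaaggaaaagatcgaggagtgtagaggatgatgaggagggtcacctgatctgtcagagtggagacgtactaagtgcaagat
Clk4 91-nt exon, chr11:51273078-51273168, plus strand: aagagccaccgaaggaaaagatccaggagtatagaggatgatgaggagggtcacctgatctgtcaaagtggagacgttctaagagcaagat
Abi2 147-nt exon, chr1:60447260-60447406, plus strand: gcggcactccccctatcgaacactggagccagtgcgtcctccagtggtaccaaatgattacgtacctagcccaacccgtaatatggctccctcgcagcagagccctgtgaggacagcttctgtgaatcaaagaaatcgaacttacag

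The Clk1 exon was at 93.6%, 55.6% and 56.2%, and the Clk4 exon at 70.4%, 37.7% and 45.1%. The 2 exons share 85 of 91 bases (93.4%) in an ungapped alignment, and neither holds any of the 3 motifs. Clk4 had a second far exon in the other direction, a 67-nt coding exon at 17.6%, 33.3% and 43.2%, with the knock-in 9.87 points beyond the knockout. A further listed exon, of 59 nt in an NMD transcript, was at 16.5%, 26.8% and 30.5%, and was not in the far group. In this gene the listed exons thus stood on both sides of wildtype in the knock-in, as their classes, activated and inhibited by PTBP2 alone, require.

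Abi2, a subunit of the WAVE complex that drives actin branching, had its exon at 71.5%, 41.1% and 38.6%. A coding exon of Tcf7l2, the nuclear effector of Wnt signalling, was at 75.0%, 47.4% and 47.5%, and one of Sytl2, which binds Rab27, at 96.2%, 62.9% and 70.5%. The exon of the synaptic adhesion gene Nlgn1 was at 36.2%, 16.96% and 12.7%. All 4 were lower in both mutants than in wildtype, as their class requires. Atp6v1h, a subunit of the vacuolar proton pump, had an exon at 50.2%, 26.7% and 24.4%, and Mctp1, a gene of calcium-binding C2 domains, one at 57.8%, 38.3% and 33.7%. In Abi2, Nlgn1, Atp6v1h and Mctp1 the knock-in was lower than the knockout too, by at most 4.60 points. For knock-in against knockout the authors' deposited table gives p = 0.0427 for Abi2, 0.0474 for Nlgn1, 0.0788 for Atp6v1h and 0.362 for Mctp1.

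Beyond the knockout lay 35 far exons, 25 of them inhibited and 6 activated by PTBP2 alone. The gap to the knockout was small in most, with a median of 3.74 points over the 35, and 11 were 5 points or more past it. For the exons of PTBP2 alone a gap under 10 points is set by their class. The widest distance from wildtype in the whole set was in 4930513N10Rik, a 79-nt exon of a non-coding transcript at 18.9%, 80.0% and 89.7%, where a gene on the opposite strand overlaps. Mtmr1, a lipid phosphatase gene, was at 40.7%, 76.7% and 79.1%, and the oxidoreductase gene Mical3 at 40.4%, 73.4% and 74.7%, also with a gene on the opposite strand. In both the knock-in was less than 3 points past the knockout. The 75-nt exon of Camk2b, a calcium-dependent kinase of the synapse, was at 60.8%, 93.4% and 93.5%, and its 45-nt exon lay between at 78.0%, 98.4% and 98.1%. Synj1, which turns over phosphoinositides on synaptic vesicles, had its 48-nt exon, chosen after its values were seen, at 54.4%, 82.1% and 86.6%. The Ank3 exon, of an ankyrin of the axon initial segment, was at 54.4%, 71.0% and 74.7%. In Synj1 and Ank3 the knock-in exceeded the knockout by 4.44 and 3.74 points, and in Camk2b by 0.0872. For knock-in against knockout the authors' deposited table gives p = 0.0166 for Ank3, against 0.427 for 4930513N10Rik, 0.442 for Mical3, 0.584 for Mtmr1 and 0.803 for the 75-nt Camk2b exon.

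Being counted beyond the knockout did not mean that the deposited comparison separated the knock-in from it. Mutyh, a DNA repair glycosylase gene, was at 60.0%, 92.0% and 94.4%, and the authors' deposited table gives p = 0.00102 for wildtype against knockout and p = 0.992 for knock-in against knockout. The 24-nt Fhod1 exon was at 6.25%, 40.0% and 41.5%, with p = 0.00188 and p = 1.0 for the same comparisons in the authors' deposited table. For Chek2, a checkpoint kinase gene, at 10.5%, 33.3% and 41.2%, the p-values in the authors' deposited table are 0.0447 and 0.698. The authors' deposited table gives 6.28e-35 and 0.00717 for the 48-nt Synj1 exon. Mutyh and Fhod1 were named for their size, and Chek2 was chosen after its values were seen.

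The other 4 far exons beyond the knockout were listed under PTBP1 alone, where wildtype and knockout differed by under 10 points, so that which side counts as beyond rests on a gap of that size. The coding exons of the PTB paralogue Ptbp3 and of the RNA-binding splicing regulator Rbm5 are shown because their proteins act in splicing.
Ptbp3 34-nt exon, chr4:59546149-59546182, minus strand: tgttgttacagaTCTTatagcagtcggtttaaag
Rbm5 74-nt exon, chr9:107759776-107759849, minus strand: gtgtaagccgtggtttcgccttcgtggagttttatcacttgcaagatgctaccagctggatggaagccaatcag

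The Ptbp3 exon, which holds the motif TCTT, was at 23.0%, 30.2% and 44.4%, and it was the only listed exon of the 3 PTB genes. The authors' deposited table gives p = 0.251 for its wildtype against knockout and p = 0.0238 for its knock-in against knockout. The Rbm5 exon was at 89.8%, 80.1% and 68.7%, with p = 9.79e-10 for wildtype against knockout and p = 3.98e-10 for knock-in against knockout in the authors' deposited table. A 24-nt exon of the ciliary gene Cspp1 was at 55.6%, 56.1% and 78.1%, and an NMD-transcript exon of Eps8l1, a relative of an actin regulator, at 12.2%, 17.8% and 33.98%, with a gene on the opposite strand. Cspp1 and Eps8l1 were chosen after their values were seen. In Ptbp3, Cspp1 and Eps8l1 the knock-in was above both other libraries, and in Rbm5 below both, as their classes require.

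Overshooting of wildtype by 20 points or more was seen in 1 exon. It belongs to Galnt13, which starts O-linked glycosylation, and lies in an untranslated region. It was at 17.9%, 17.2% and 50.0%, with the knock-in 32.1 points above wildtype. With wildtype and knockout 0.616 points apart, its place beyond wildtype rests on that small gap, and Cspp1, with a gap of 0.542 points the other way, was counted beyond the knockout. The authors' deposited table gives p = 0.00962 for knock-in against knockout in Galnt13. Just outside the limit of 20 points were Lat2, an adaptor of immune cells, at 48.8%, 41.7% and 68.8%, and Mag, a myelin glycoprotein gene, at 73.3%, 68.2% and 93.2%. Just inside it were the 24-nt Agrn exon, at 43.8%, 66.4% and 63.8%, and the 45-nt Camk2b exon.

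Of the 105 exons beyond wildtype, 22 were 10 points or more past it, and the median distance over the 105 was 6.58 points. By class they were 35 of 44 exons activated and 38 of 47 inhibited by PTBP1 alone, 10 of 24 activated and 22 of 61 inhibited by both, and none of PTBP2 alone. The class limits leave PTBP2 alone no room there, since wildtype was at least 10 points and the knock-in under 10 points from the knockout. For PTBP1 alone they place the knock-in outside both other levels. Whether such an exon counts as beyond wildtype or beyond the knockout rests on a wildtype to knockout gap under 10 points. The largest among exons listed under both were an untranslated 49-nt exon of Csnk1g1, at 68.9%, 80.1% and 54.0%, a coding exon of the replication timing gene Rif1, at 53.5%, 41.9% and 65.6%, and an NMD-transcript exon of Naa16, an acetyltransferase subunit gene, at 37.8%, 62.7% and 26.0%. In Csnk1g1 the 2 listed exons therefore stood 33.6 points above and 14.9 points below wildtype. An NMD-transcript exon of the sodium channel gene Scn1a was at 58.8%, 61.8% and 40.3%, and a 125-nt coding exon of Slc2a4, an insulin-regulated glucose transporter, at 81.4%, 90.9% and 62.8%. These 5 exons were chosen after their values were seen.

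Exons at wildtype level were mostly those listed under both proteins, 52 of the 97, with 29 from PTBP2 alone and 16 from PTBP1 alone. By class they were 38 of 61 exons inhibited and 14 of 24 activated by both. For PTBP2 alone they were 23 of 357 and 6 of 78, and for PTBP1 alone 12 of 47 and 4 of 44. The class limits fix much of this. An exon of PTBP2 alone could be at wildtype level only with a knockout change under 15 points. Exons listed under both had the knock-in at least 10.1 points from the knockout. Of the 97, 56 lay between wildtype and knockout, 37 beyond wildtype and 4 exactly at wildtype. Those 4 were at 0 or 100% in both libraries. In 12 of the 97 the knockout was 20 points or more from wildtype, and all 12 were listed under both, as the class limits require. Coding exons from this set are shown as the counterpart of the unrestored short exons.
Pdlim5 18-nt exon, chr3:142304705-142304722, minus strand: gaaaattccacctaaacg
Diap2 21-nt exon, chrX:129825927-129825947, plus strand: atagttggaagtaaagttctg
Plod2 63-nt exon, chr9:92601985-92602047, plus strand: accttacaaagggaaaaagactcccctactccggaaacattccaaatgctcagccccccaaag

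None of the 3 holds a motif. The 18-nt exon of Pdlim5, an actinin-binding PDZ and LIM domain gene, was at 11.6%, 35.6% and 14.3%. The exon of the formin Diap2 was at 63.9%, 33.3% and 68.8%. For Plod2, a lysyl hydroxylase of collagen, the exon was at 46.9%, 72.4% and 49.2%. An untranslated exon of Armcx1, a gene of mitochondrial transport, was at 76.4%, 30.6% and 76.2%, the largest knockout change among exons at wildtype level. Knock-in levels within 5 points of wildtype were also found for Ctbs, a lysosomal glycosidase (63.6%, 40.2% and 62.8%), the zinc finger gene St18 (36.4%, 13.3% and 40.3%) and Arhgap44 (45.5%, 69.7% and 42.1%). In all of these the knockout stood apart from the other 2 libraries, as their choice by a large knockout change requires. The same held for 1810021B22Rik, at 29.0%, 56.8% and 25%. At the limit of 5 points the nearest exons inside were those of Aasdh, 4.92 points above wildtype, and Pld1, 4.92 points above, and those outside were Orc6 at 5.12 and Zfp112 at 5.13.

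Of the listed gene groups, 4 exons were at wildtype level, and their knockout changes were all under 20 points. The exon of the growth factor receptor gene Fgfr2 was at 65.5%, 50.9% and 65.1%, and that of Unc13b, which primes synaptic vesicles, at 43.8%, 57.1% and 41.9%. An exon of the splicing factor gene Son was at 28.0%, 37.7% and 24.6%, and one of Hmga1, a chromatin architectural protein gene, at 17.3%, 8.197% and 19.9%. In all 4 the knock-in was nearer to wildtype than to the knockout. The choice fixed this, since their classes keep the knock-in at least 10 points from the knockout. These were named after their values were seen.

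**Figure D4:**
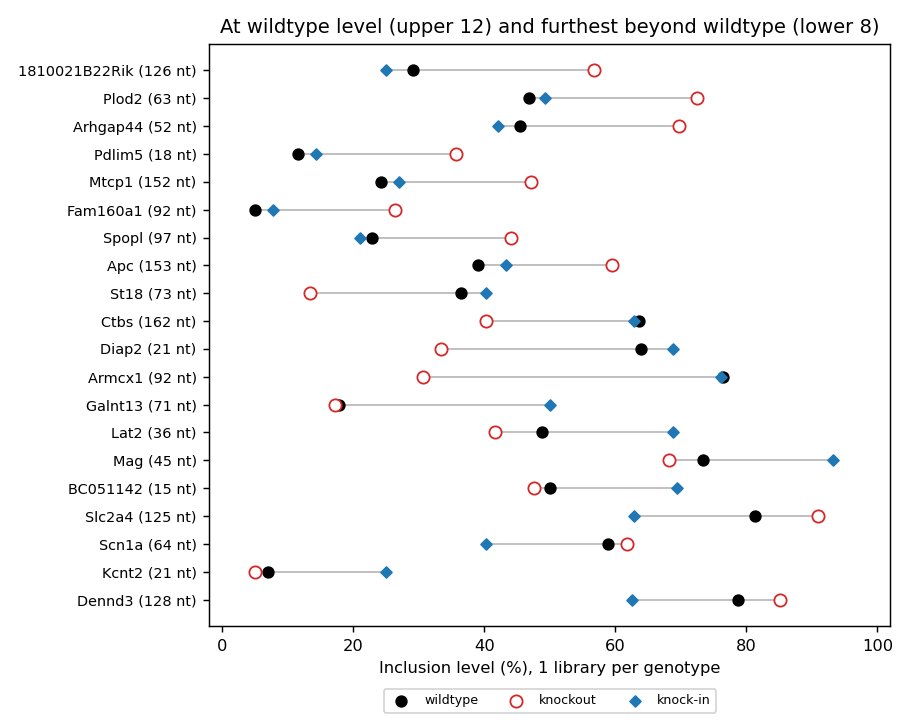
Inclusion levels in percent in the 3 P1 libraries for the 12 exons under 5 points from wildtype with a knockout change of 20 points or more (upper rows) and the 8 exons furthest beyond wildtype (lower rows). In the upper rows knock-in and wildtype lie together, as in Armcx1 (76.2% and 76.4%), and in the lower rows the knock-in lies apart from both, as in Galnt13 (50.0%).

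The 420 exons in the middle range had medians of 55.4% for wildtype, 65.6% for the knockout and 64.7% for the knock-in, and a median distance of 11.3 points from wildtype. By position 253 of them lay between wildtype and knockout, 96 beyond the knockout and 67 beyond wildtype. Kif1a, a motor of synaptic vesicle precursors, had an exon at 29.9%, 47.3% and 48.7%, and Ncam1, a neural cell adhesion gene, one at 50.2%, 72.0% and 66.8%. The 111-nt exon of Grin1, the obligate subunit of NMDA receptors, was at 48.9%, 60.5% and 66.4%, and another annotated gene overlaps it. For the homeobox gene Prrx1, listed under both proteins, the exon was at 60.8%, 27.8% and 68.8%, with the knock-in 7.97 points beyond wildtype. In Kif1a, Ncam1 and Grin1 both mutants were higher than wildtype, as their class requires. These 4 were chosen after their values were seen.

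Exons of the same gene could be compared in 64 genes with 2 or more listed exons. In 8 genes 2 exons were in the far group, and in 4 of these, Aen, Atp2b4, Mcf2l and Sgip1, the 2 overlap in the genome. Those of Camk2b, Pum2, Synj1 and Clk4 were separate. For Pum2, a translational repressor, the NMD-transcript exons were at 13.2%, 42.7% and 42.5% and at 11.1%, 46.4% and 47.0%. Akap13, an anchoring protein for protein kinase A chosen after its values were seen, was the only gene with an exon in each of the far and wildtype-level groups. Its 66-nt coding exon was at 33.9%, 69.8% and 60.0%, and its 54-nt coding exon at 3.82%, 21.1% and 7.83%. Agrn, which clusters acetylcholine receptors when its Z exons are included, had its 24-nt exon 20.04 points and its 33-nt exon 18.3 points above wildtype, so the limit of 20 points fell between them.

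Length and reading frame were not used to place the exons. The 94 far exons had a median length of 81.5 nt and the 97 at wildtype level 111 nt, beside 92 nt in all 611. Microexons of at most 27 nt made up 14 of the 94 far exons (14.9%), 3 of the 97 at wildtype level (3.09%) and 49 of the 611 (8.02%). The length was divisible by 3, which keeps the reading frame whether or not the exon is included, in 61 far exons (64.9%), 43 at wildtype level (44.3%) and 345 in all (56.5%). Classes differ in these features, so the same was read within exons inhibited by PTBP2 alone. There 50 of 70 far exons were divisible by 3 (71.4%), 169 of 264 middle ones (64.0%) and 10 of 23 at wildtype level (43.5%), with median lengths of 74.5, 87 and 100 nt. The order within the class was the same as over all exons. The far exons of this class also had the larger knockout changes, so the distance of the knock-in and the size of the knockout change cannot be told apart here.

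With the knockout change held between 10 and 15 points in that class, 10 of 23 exons at wildtype level (43.5%) and 109 of 171 others (63.7%) were divisible by 3. These 2 groups also differed in annotation, with 10 of the 23 and 131 of the 171 coding as defined below. Among those coding exons 6 of 10 (60.0%) and 95 of 131 (72.5%) were divisible by 3. No test was made of these shares, and exons are not replicates of a condition. Coding exons, by a match within the coding sequence of a protein-coding transcript, were 57 of 94 far exons, 50 of 97 at wildtype level and 392 of 611. Of these coding exons 82.5%, 60.0% and 70.2% were divisible by 3. Exons found in NMD transcripts but in no protein-coding one were 12 of the 94, 12 of the 97 and 53 of the 611. Among far exons they included those of Pum2, Ikzf4, Stam2, Ptch1 and Mta3.

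Levels at the 4 ages, also not used to place the exons, were given for 65 far exons, 62 of them inhibited by PTBP2 alone. All had been placed in developmental clusters by the authors. From E14 over E17 and P2 to P10 the medians of the 62 were 15.7%, 30.8%, 48.5% and 51.4%, beside 36.3% for P1 wildtype, 69.95% for the knockout and 65.7% for the knock-in. These exons were chosen for a knock-in far above wildtype, so its height against the ages is partly fixed by that choice and is given beside all 238 exons of the class with ages. The knock-in was above P2 in 55 of the 62 and in 154 of the 238, and by 20 points or more in 27 and 41. It was above all 4 ages in 45 of the 62 and 112 of the 238, where the P1 wildtype was above all 4 in 5 and 23.

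Counts by developmental cluster are given without a test. In cluster 6, whose exons of this class had medians of 4.37% at E14 and 13.1% at P10, the knock-in was above all 4 ages in 38 of 52 exons of the class and 15 of its 15 far ones. In cluster 3, with medians of 12.3% and 66.8%, it was so in 27 of 75 and in 14 of 25 far ones. The P1 wildtype was itself above all 4 ages in 14 of 52 and 4 of 15 in cluster 6, and in 2 of 75 and 0 of 25 in cluster 3. The medians of cluster 6 were at most 14.2% at any age, which leaves the knock-in more room above the ages than in cluster 3. With far exons also chosen for a high knock-in, these counts are partly fixed and are no contrast between the clusters. The Dnm2 exon of cluster 6 was at 0.685%, 2.63%, 5.93% and 6.98% from E14 to P10, against 7.80% in P1 wildtype and 49.5% in the knock-in. The Sympk exon was at most 13.01% at any of these ages, against 0.220% in P1 wildtype and 64.1% in the knock-in. For Magi1, a synaptic scaffold gene of cluster 3, the levels were 1.57%, 9.40%, 56.1% and 87.7%, and its knock-in level of 62.8% lay between P2 and P10. The 75-nt Camk2b exon was at 92.6% at P10 and 93.5% in the knock-in. In the knock-in the Dnm2 and Sympk exons thus stood above their range over these ages and Magi1 within it. The Camk2b exon was 0.903 points above its highest age, too little to set it apart from P10 with 1 library each.

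**Figure D5:**
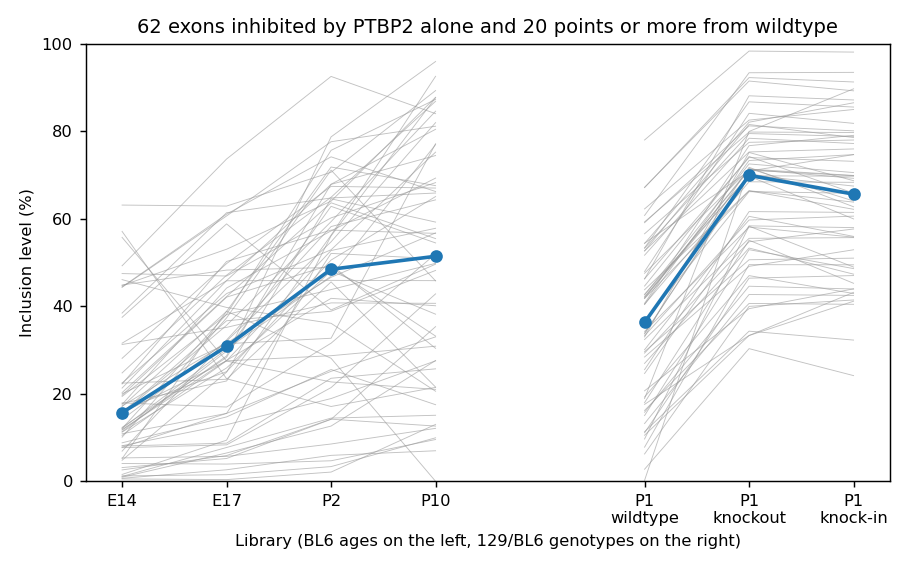
Inclusion in percent of the 62 far exons inhibited by PTBP2 alone with levels given at all ages, in 4 BL6 libraries by age and 3 P1 libraries by genotype. Thin lines are exons and thick lines medians, which run from 15.7% at E14 to 51.4% at P10 and are 36.3%, 69.95% and 65.7% in wildtype, knockout and knock-in.

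In the 12 exons inhibited by PTBP2 alone that were at wildtype level and had ages, the knock-in was above P2 in 3 and above all 4 ages in 1. Their medians were 32.8% at P2 and 23.1%, 35.2% and 27.1% in the 3 P1 genotypes. Exons of this group were at wildtype level by choice, and wildtype was below P2 in 10 of the 12.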

How the data were processed

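RNA from neocortices was extracted with TRIzol and made into strand-specific Illumina libraries by USER digestion, as the labels' protocols state. STAR and the build GRCm38 (mm10) are named per the submitters' processing notes. The sources used here do not give how inclusion was computed. The deposited inclusion ratio is a fraction, per the file headers, and was multiplied to percent. The p-value of each exon was deposited by the authors with no test named. Where the 2 differences from the knockout were over 5 points apart, the smaller p-value went with the larger difference in 473 of 473 exons of 5 deposited tables and in 0 of 23 of the table for joint inhibition. The column names of that table look swapped, and no p-value from it is printed.

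Knock-in minus wildtype was computed from the raw ratios with Python 3.11.15, numpy 2.4.6 and pandas 2.3.3, and figures were drawn with matplotlib 3.10.9. The placement was tested on simulated exons. Exons were matched by position and strand to GENCODE M21, where 609 of 611 have an exon with the same ends and 47 overlap a further gene on either strand. Intron sequence was not used here. Some items are not reported here.

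Exons were named by rule: per position and direction the 6 farthest, all far exons of 10 gene lists (244 genes), the 8 exons at wildtype level with the largest knockout change and 2 on either side of each limit. Others are said to be chosen on their values or stand beside a named exon of the same gene or as examples of a count. The members, lists and rules were chosen with earlier results of these data known. Alternatives were other limits, 1 exon per gene, no exons at 0 or 100%, a 2-point margin for position and means, with overlap with other genes added after the data were seen.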

Additional observations from a re-analysis of the deposited data

How the results depend on the processing

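The number of exons 20 points or more from wildtype was 193 with a limit of 15 points and 54 with 25, against 94. Those of them beyond the knockout numbered 79 and 15, against 35, and those beyond wildtype 10 and 1, against 1. Exons at wildtype level numbered 56 with a limit of 3 points and 259 with 10, against 97. Where an exon had to be past the knockout by 2 points or more, 66 counted as beyond it, against 131. All 7 counts stayed within 1.5 times with 1 exon per gene, without exons at 0 or 100% and without exons that overlap another gene. Means in place of medians were 35.5%, 64.0% and 64.0% in wildtype, knockout and knock-in for exons higher than wildtype, and 76.6%, 48.2% and 50.3% for those lower. Introns around the exons were not searched for motifs. No paired analysis was possible because each genotype has 1 library. Since depth is unknown, single levels have no interval, and the knockout library fixes the position of every exon.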
